A study of Mus musculus with 4 samples.

Results

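The Id proteins and the E proteins were examined in double-positive thymocytes, a stage of immature T cells that display CD4 together with CD8. The 6 genes were Id1, Id2 and Id3, which encode Id proteins, and Tcf3, Tcf4 and Tcf12, which encode the E proteins E2A, E2-2 and HEB. They were found by gene symbol among the probe sets that name a single gene. Each gene had 1 probe set, so they account for 6 of the 8251 genes named in this way, and all 6 were bright enough to be tested.

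The cells were sorted with microbeads from the thymi of female C3H/HeN mice aged 4 weeks. They were then cultured for 3 h, either in medium with 0.1% PBS or with the synthetic glucocorticoid dexamethasone at 1e-07 M. There were 2 Affymetrix arrays for each group, described in the series design as technical replicate extracts. The p-values below therefore measure the spread between extracts, which may be technical, and the labels do not say whether these came from separate wells or animals.

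E proteins are transcription factors of the basic helix-loop-helix class that bind DNA as dimers at E-boxes, sites of the form CANNTG. Id proteins carry a helix-loop-helix but no basic region, so a dimer of an Id protein and an E protein does not bind DNA. In thymocytes E2A and HEB sustain the double-positive programme and restrain passage to later stages, and Id3 is induced by signals from the T cell receptor.

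At the deposited scaling Id3 was the only member that passed the test: its signal fell to 20.1% of that in medium. Its RefSeq promoter is shown because it belongs to that gene, and the promoter of Id2 because this related gene did not pass the test. Both are the 250 bases before the annotated start, on build GRCm38.p6, at chr4:136143572-136143821 on the plus strand for Id3 and chr12:25096093-25096342 on the minus strand for Id2. Capitals mark every match to the motifs searched.

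Id3: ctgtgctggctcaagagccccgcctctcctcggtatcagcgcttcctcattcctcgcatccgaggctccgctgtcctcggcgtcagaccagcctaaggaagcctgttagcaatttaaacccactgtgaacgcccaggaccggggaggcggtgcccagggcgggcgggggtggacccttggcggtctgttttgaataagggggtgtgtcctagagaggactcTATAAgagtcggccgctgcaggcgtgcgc

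Id2: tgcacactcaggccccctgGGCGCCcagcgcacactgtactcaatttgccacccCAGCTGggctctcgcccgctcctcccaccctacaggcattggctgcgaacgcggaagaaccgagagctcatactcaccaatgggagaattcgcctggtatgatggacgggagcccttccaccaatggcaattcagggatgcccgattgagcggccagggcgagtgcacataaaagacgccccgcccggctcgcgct

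The motifs were searched on both strands of windows of 300 bases, which add the 50 bases from the start onwards. RefSeq windows of 4 of the 6 genes were searched, those of Id2, Id3, Tcf3 and Tcf12, and no window of Id1 or Tcf4 was. The search of the members left out windows on 1 chromosome, which the shares over all windows include. The Id3 window held 0 matches to CANNTG, a motif present in 72.3% of all 32851 windows. It also held 0 matches to AGAACA, a half-site of the glucocorticoid receptor found in 19.0% of windows, to the full palindrome of which it is an arm (0.00913%), to GCGNGGGCG, a site of Egr factors (5.55%), and to GGCGCC (11.9%), which occurs in BMP-responsive elements. Its only capitals are a TATAA, beginning 29 bases before the start, a motif added after the sequence had been read and found in 24.9% of windows. The Id2 window held 1 CAGCTG, an E-box present in 16.3% of windows, and 1 GGCGCC. Among the E-protein genes, the Tcf3 window held 1 match to CANNTG and 1 to AGAACA, and the 3 windows of Tcf12 held 1, 2 and 1 matches to CANNTG. Another E-box counted by itself, CAGGTG, was in 20.2% of windows and in 0 of those searched for these 4 genes. A match is a run of letters and not a measured binding site, and a missing match says only that these letters are not in this window.

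Values are MAS5 signals, the linear intensities that the authors deposited. Probe sets for bacterial and yeast transcripts reached at most 14, which is taken as background. The arrays had median signals of 21.1 to 22.8. Actin controls, whose 3′ to 5′ ratio tracks how intact the RNA is, gave 1.06 to 1.15 in medium and 1.24 to 1.40 with dexamethasone. The same ratio for Gapdh overlapped between the groups, at 0.838 and 0.845 in medium and 0.904 and 0.823 with dexamethasone. The part of RNA quality in the results was not tested. Added hybridization controls were 1.37-fold higher on the dexamethasone arrays. Scaling to them would lower every log2 difference, moving the median of all tested probe sets from -0.00 to -0.46. Directions below are at the deposited scaling unless stated.

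All 12 probe sets for markers of double-positive thymocytes, among them Cd4, Cd8a and Rag1, lay above background on every array. All 5 for double-negative thymocytes (Cd44, Il2ra and Kit) lay at or under it. Of the 12, 2 fell, beside 1.94% of all tested. These were Cd8b1 (log2 difference -0.33, limma adjusted p = 0.0465) and Ptcra (-0.84, limma adjusted p = 0.0190). With limma fitted without its variance trend, 0 of the 12 passed. Among markers of other cells, 5 of 10 probe sets for B cells, 7 of 12 for macrophages and dendritic cells, 4 of 5 for NK cells and 11 of 14 for epithelium and stroma were at background on every array. Their summed signals in medium and with dexamethasone were 160 to 163 and 184 to 196 for B cells, 958 to 1003 and 967 to 1051 for macrophages and dendritic cells, 99.0 to 108.5 and 74.2 to 99.5 for NK cells, and 202 to 227 and 233 to 273 for epithelium and stroma. The B cell genes Ebf1 and Cd22 and the epithelial genes Foxn1, Epcam and Krt5 were among those at background. Of the markers above it, the B cell gene Cd79b had signals of 85.5 and 89.2 in medium and 96.5 and 91.7 with dexamethasone. Cst3, of the macrophage and dendritic cell list, read 866.4 to 935.1 over the arrays on its brighter probe set. Gzma, of the NK cell list, had 91.9 and 89.0 in medium and 82.2 and 67.8 with dexamethasone. Cst3 and Gzma each gave most of the sum of their list. The collagen gene Col1a2 read 137.9 to 175.7 over the arrays on its brighter probe set, and Col1a1 went from 16.5 and 18.4 to 33.5 and 38.2 on its brighter one (log2 difference 0.997, limma adjusted p = 0.0522). The sums were 96.3 to 105.7 and 106.2 to 114.9 for red cells and 25.6 to 31.4 and 24.7 to 32.2 for endothelium. Of the markers of mature single-positive thymocytes, 3 of 6 were at background. They summed to 278.1 to 301.5 in medium and to 233.0 to 239.3 with dexamethasone. These sums were lower without overlap, while those of B cells, of epithelium and stroma, and of red cells were higher without overlap. Of the 3 tested, 0 passed, and the median log2 difference was -0.37. Only 1 of the 3, Itgb7, did not overlap between the groups, beside 50.1% of all tested probe sets. The part of other cells in the results was not tested. In such bulk RNA, fewer cells with a transcript and less of it per cell cannot be told apart.

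Id3 had signals of 327 and 315 in medium and of 59.4 and 70.0 with dexamethasone. The groups were far apart, and every value stayed above background. The mean fell from 321 ± 8.34 to 64.7 ± 7.495 (SD, n = 2), so 20.1% of the medium signal was left after 3 h. On the scale of log2(signal + 1) the difference was -2.30 ± 0.11 (SE), with a 95% interval of -2.56 to -2.04 and a limma adjusted p of 0.000341. Of the 6500 tested probe sets, 242 (3.72%) passed an adjusted p of 0.05 in limma, with 116 rises (1.78%) and 126 falls (1.94%). At the deposited scaling Id3 had the lowest difference of all 6500. Leaving out an array gave -2.41 to -2.18 and places 1 to 7 from the bottom. Id3 passed under each of the 14 alternatives, from -2.75 with scaling to the hybridization controls to -2.07 with a pseudocount of 16.

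**Figure D1:**
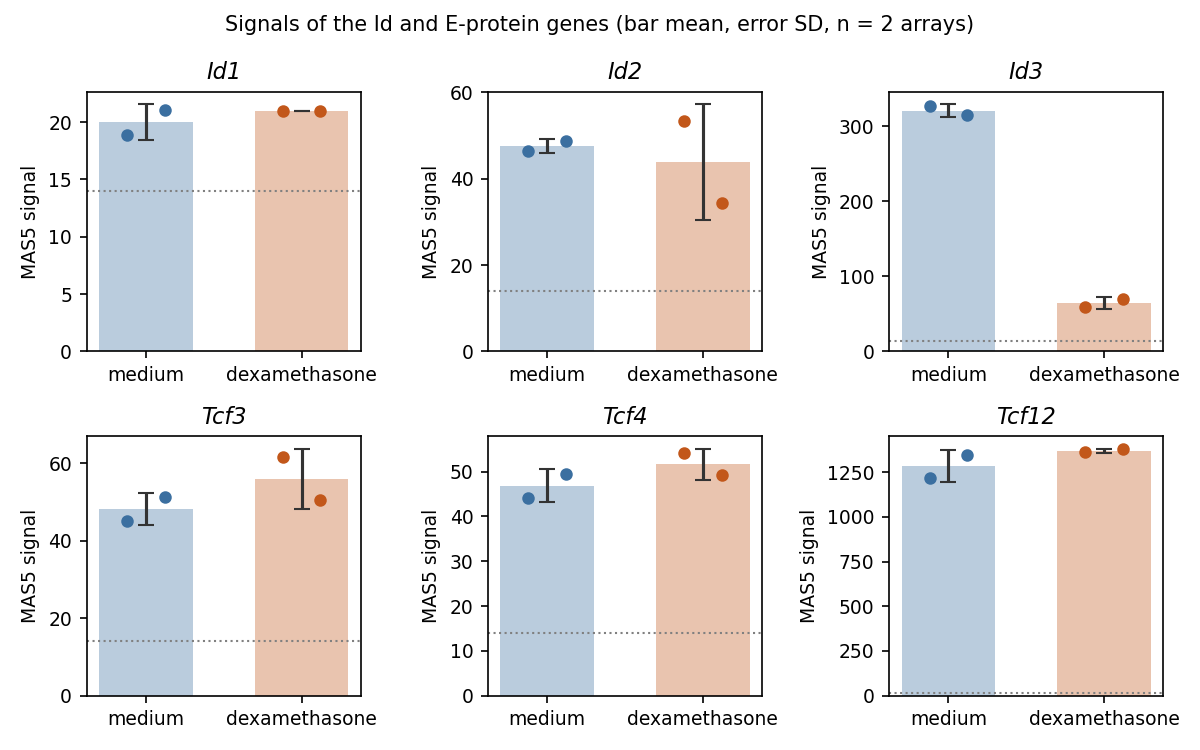
MAS5 signal of each member gene on the linear scale, with 1 point for each array, bars for the mean and error bars for the SD (n = 2). The dotted line is the background of 14; only the panel of Id3 shows groups set far apart, at 321 and 64.7.

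Id2 encodes the Id protein best known for its need in natural killer and innate lymphoid cells. It had signals of 46.5 and 48.8 in medium and of 53.3 and 34.4 with dexamethasone. The dexamethasone arrays lay on either side of both medium arrays, so the groups overlapped. The log2 difference was -0.15 ± 0.22, with a 95% interval of -0.68 to 0.38, and did not pass (limma adjusted p = 0.774). Without the second dexamethasone array it was 0.16. With scaling to the hybridization controls it was -0.60 and passed (limma adjusted p = 0.0223), as did 2961 probe sets in all.

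Id1, which is active in early progenitors and endothelium, was dim. Its signals were 18.9 and 21.1 in medium and 21.0 and 21.0 with dexamethasone, close above the background of 14. The dexamethasone values lay within the range of the medium values. The log2 difference was 0.07 ± 0.21, with a 95% interval of -0.45 to 0.59 (limma adjusted p = 0.899). Id4, the remaining gene of the family and no member here, had signals of 3.40 to 8.80, at background on every array, and was not tested.

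Tcf12 encodes HEB, which pairs with E2A in thymocytes. Its signals were 1219 and 1345 in medium and 1362 and 1378 with dexamethasone. The groups did not overlap, by a margin smaller than the gap between the medium arrays. The log2 difference was 0.10 ± 0.07, with a 95% interval of -0.07 to 0.27, and did not pass (limma adjusted p = 0.509). The suffix of its probe set, which ends in _s_at, marks probes that can match more than 1 transcript, so the signal may join isoforms.

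Tcf3 encodes both splice forms of E2A, E12 and E47. It had signals of 45.2 and 51.2 in medium and of 61.5 and 50.5 with dexamethasone. The first dexamethasone array was the highest and the second lay within the medium range. The log2 difference was 0.21 ± 0.16, with a 95% interval of -0.17 to 0.59 (limma adjusted p = 0.525).

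Tcf4 encodes E2-2, the E protein that plasmacytoid dendritic cells depend on. Its signals were 44.2 and 49.5 in medium and 54.1 and 49.2 with dexamethasone, and the groups overlapped. The log2 difference was 0.14 ± 0.15, with a 95% interval of -0.21 to 0.49 (limma adjusted p = 0.659).

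All 3 E-protein genes were thus slightly higher at the deposited scaling, and 0 of 3 passed. With scaling to the hybridization controls all 3 were lower, at -0.25 for Tcf3, -0.32 for Tcf4 and -0.36 for Tcf12, and Tcf12 then passed downwards (limma adjusted p = 0.0302). At the deposited scaling the intervals reflect the spread between extracts. On the log2 scale they reached up to 0.27 for Tcf12 and to 0.59 for Tcf3 and Id1, and down to -0.68 for Id2. The groups did not overlap for 2 of the 6 members, beside 50.1% of all tested probe sets. These were Id3, lower, as were 26.2% of all, and Tcf12, higher, as were 23.9%. Counted from the lowest difference, Id2 stood at place 1707 of 6500, Id1 at 4070, Tcf12 at 4386, Tcf4 at 4768 and Tcf3 at 5277.

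**Figure D2:**
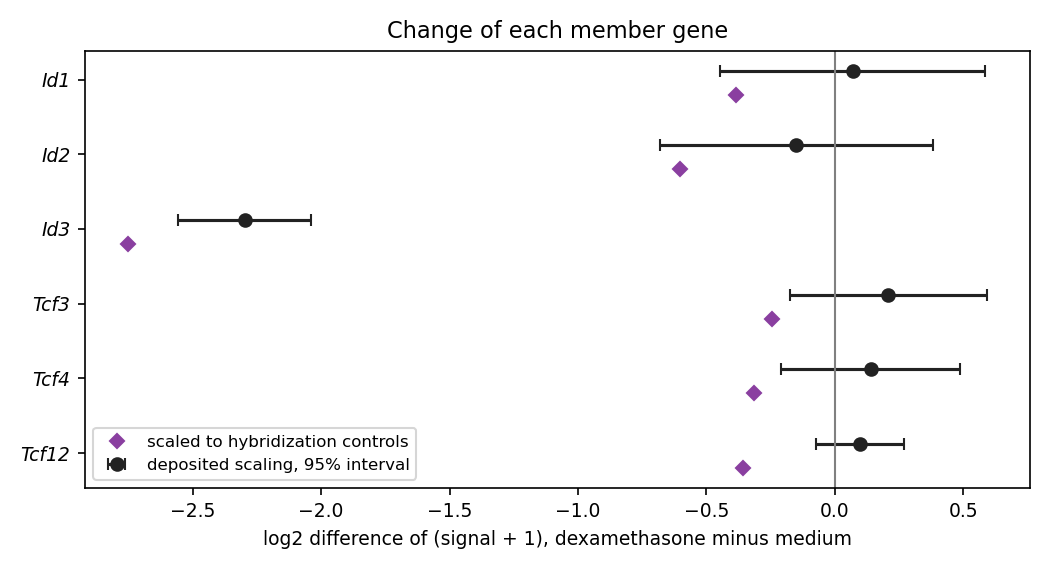
Log2 difference of each member gene, dexamethasone minus medium; black points are at the deposited scaling with 95% intervals from limma, and diamonds are scaled to the hybridization controls. The interval of Id3, -2.56 to -2.04, stands apart from 0, and the other 5 intervals include 0.

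**Figure D3:**
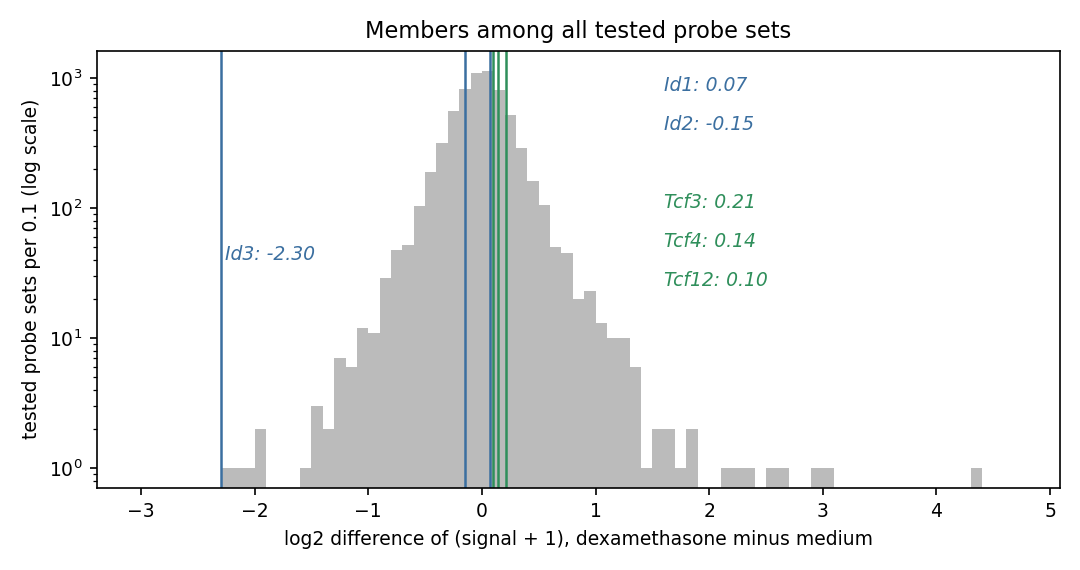
Histogram of the log2 differences of the 6500 tested probe sets, with a logarithmic count axis and a vertical line for each member. Id3 lies at the left end at -2.30, and the other members lie between -0.15 and 0.21.

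The balance of Id to E-protein signals was taken on each array as the log2 signal of an Id gene minus that of an E-protein gene. A factor common to an array largely cancels in it. Signals of different probe sets are not on a common scale, so the size of a balance has no meaning by itself and only its change is read. With 2 arrays against 2, an exact two-sided permutation test cannot give a p below 0.333, and no test was made.

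Id3 minus Tcf12 went from -1.90 and -2.09 in medium to -4.50 and -4.28 with dexamethasone. The mean balance changed by -2.40, with SDs of 0.14 and 0.15, which is a ratio 5.26-fold lower. Id3 minus Tcf3 went from 2.83 and 2.60 to -0.05 and 0.46, a change of -2.51. Id3 minus Tcf4 went from 2.86 and 2.65 to 0.13 and 0.50, a change of -2.44. The groups did not overlap in any of these, which share the Id3 probe set, nor in the balance of Id1 and Id2 without Id3 that is given below. Id1 minus the mean of the E-protein genes changed by only -0.08 and did not overlap either. Lack of overlap therefore does not set the balances with Id3 apart.

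With the Id genes averaged and the E-protein genes averaged, the balance stood at -1.01 and -1.12 in medium and at -2.008 and -2.004 with dexamethasone. Its change was -0.94, a ratio 1.92-fold lower. Id1 and Id2 without Id3 gave -2.15 and -2.20 in medium and -2.28 and -2.45 with dexamethasone, a change of -0.19, with SDs of 0.04 and 0.12. Id3 minus the mean of Id1 and Id2 changed by -2.26. Most of the change in the averaged balance therefore came from the Id3 probe set.

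**Figure D4:**
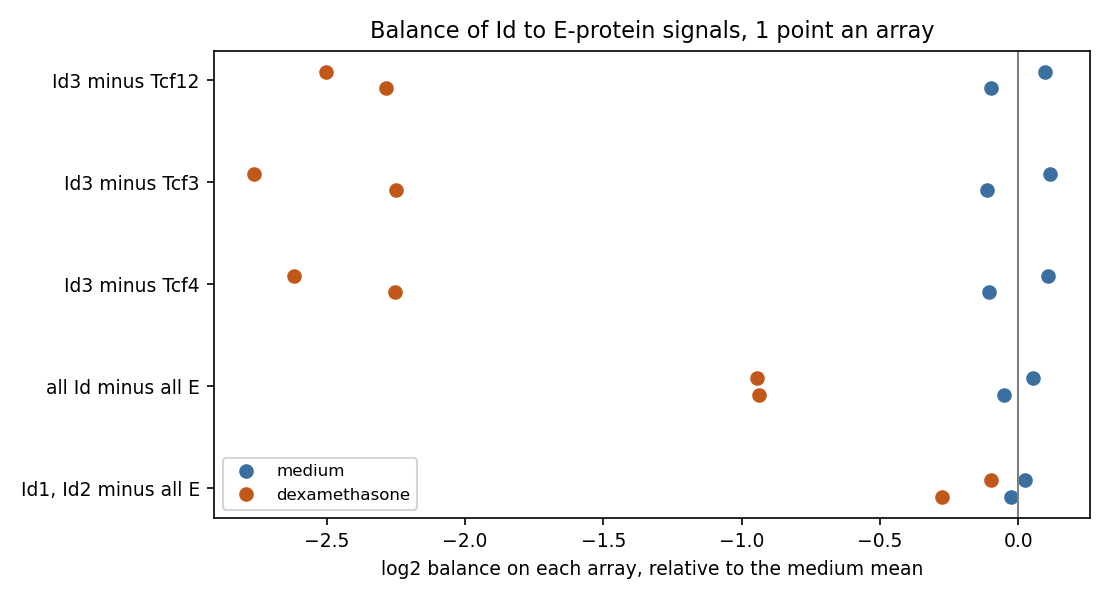
Balance of Id to E-protein log2 signals on each array, shown relative to the mean of the medium arrays, with 1 point an array. The mean of the dexamethasone arrays lies between -2.51 and -2.40 in the balances with Id3, at -0.94 for all Id genes and at -0.19 for Id1 and Id2 alone.

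The probe sets most like that of Id3 were sought among the 6500 by the root mean square difference of log2 signals over the 4 arrays, each centred on its own mean. This distance was 0.24 for Phlda1, a pleckstrin-homology protein, 0.30 for Smtn, a cytoskeletal protein, 0.32 for Plekho1, 0.43 for Cbfa2t3 and 0.49 for Lamb3, a laminin chain. Phlda1 had signals of 109.7 and 104.2 in medium and of 27.5 and 20.9 with dexamethasone. The other 4 lay at background with dexamethasone, so they were at least 2.82-fold, 2.47-fold, 1.58-fold and 1.75-fold lower. Their likeness to Id3 fixes the direction of these values, so they are a description with no test, and these 4 passed the filter on low signals through the medium arrays. The other Plekho1 probe sets differed by -0.46 and -0.28.

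Cbfa2t3 encodes ETO2, a corepressor that binds E proteins. Its brighter probe set had signals of 32.2 and 28.5 in medium and of 14.5 and 14.0 with dexamethasone, a log2 difference of -1.04, which did not pass (limma adjusted p = 0.0561).

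Genes that E proteins are known to regulate in thymocytes changed in both directions. Of 16 such genes listed, 12 were tested on 17 probe sets, of which 1 rose and 4 fell, beside 3.72% of all tested probe sets. The list's median log2 difference was -0.02, against -0.00 over all. Ptcra, the pre-T cell receptor alpha chain, had signals of 87.7 and 86.1 in medium and of 49.5 and 47.0 with dexamethasone, a log2 difference of -0.84. Gfi1, a transcriptional repressor, went from 227.6 and 225.5 to 128.4 and 138.4 (-0.76). Notch1, the receptor needed for T cell commitment, fell on its brighter probe set from 296.8 and 299.0 to 187.5 and 183.5 (-0.68) and differed by 0.02 on the dimmer. Socs1, which dampens cytokine receptors, fell from 2300 and 2076 to 1317 and 1427 (-0.67). Il7r, the specific chain of the interleukin-7 receptor, rose from 49.4 and 58.0 to 146.8 and 139.3 (1.40).

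The counts moved when an array was left out. Without the first dexamethasone array 0 rose and 0 fell, without either medium array 1 rose and 0 fell, and without the second dexamethasone array 2 rose and 3 fell. Scaled to the hybridization controls, the list had 1 rise and 10 falls, against 49 and 2912 over all probe sets.

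Among the other DNA-binding partners of E proteins and the LIM cofactors that join their complexes, 8 of 24 probe sets were bright enough to be tested and 1 rose, beside 1.78% of all tested. This was Lmo4, a LIM-only adaptor, with signals of 210.7 and 257.8 in medium and of 559.8 and 612.1 with dexamethasone, a log2 difference of 1.32 (limma adjusted p = 0.00276). It passed with any 1 of the 4 arrays left out, and did not pass without the variance trend (limma adjusted p = 0.0689), a setting in which 0 probe sets of the 5 lists passed and 21 of all did. Tal1, Tal2 and Lyl1, the partners linked to T cell leukaemia, were at background on every array. The list's median was 0.01.

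Of the coactivators and corepressors, 8 genes were tested on 10 probe sets, and 1 fell, beside 1.94% of all tested. This was the deacetylase gene Hdac1, from 430.5 and 421.1 to 309.9 and 320.7 (-0.43, limma adjusted p = 0.0268), which did not pass with any of the 4 arrays removed. The median of the list was -0.35.

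Routes that induce Id genes were also followed. On the route from the T cell receptor through MAP kinases, 0 of 5 tested probe sets passed, beside 3.72% of all. The largest differences were -0.54 for Rasgrp1, a Ras activator (limma adjusted p = 0.112), and 0.37 for Elk1. Egr1 had signals of 35.7 and 30.6 in medium and of 29.6 and 36.7 with dexamethasone on its brighter probe set, a log2 difference of -0.00. Its dimmer probe set and that of Egr2 were at background on every array. On the TGF-beta and BMP route, 9 of 20 probe sets were tested, of which 1 rose and 1 fell, beside 1.78% and 1.94% of all. Tgfb1 went from 327.9 and 298.5 to 237.0 and 213.2 (-0.48, limma adjusted p = 0.0460). The signal transducer gene Smad1 went from 163.7 and 193.5 to 268.1 and 263.6 (0.58, limma adjusted p = 0.0335), with 0.32 on its other probe set. Neither passed with any of the 4 arrays removed. The medians of these lists were -0.00 and 0.32. The latter was 0.09 without the first dexamethasone array, 0.19 without the first medium array, 0.04 with the brightest probe set of each gene and -0.14 with scaling to the hybridization controls.

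**Figure D5:**
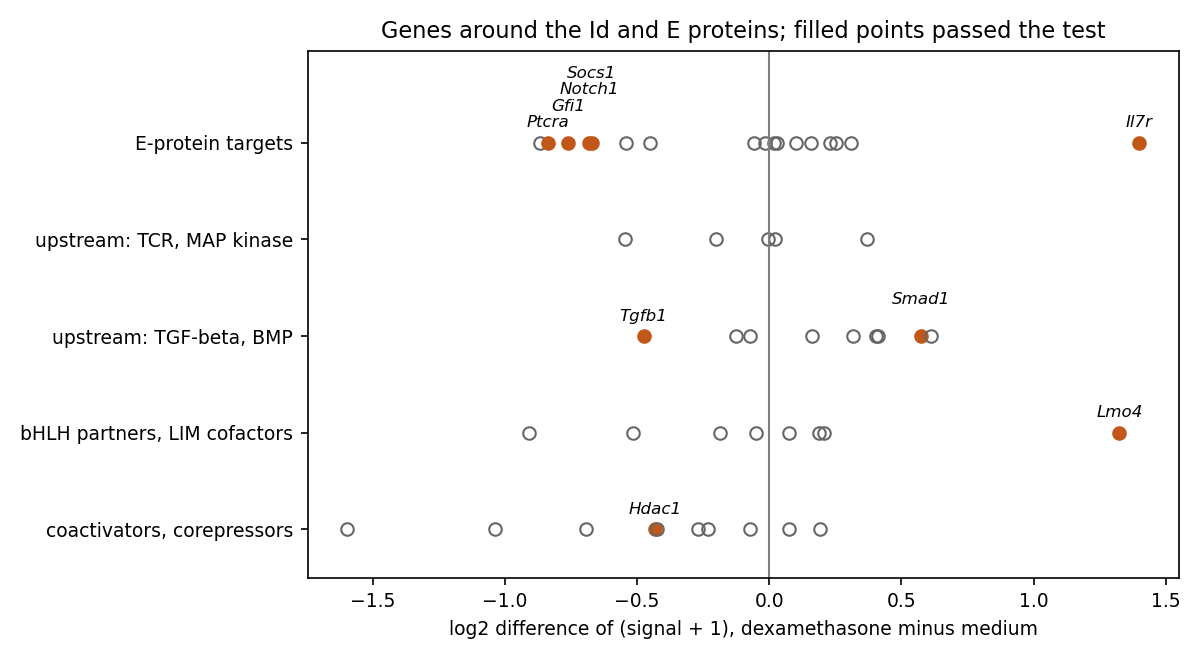
Log2 difference of every tested probe set in the 5 lists of genes around the Id and E proteins, dexamethasone minus medium; filled and named points passed an adjusted p of 0.05 in limma. Il7r (1.40) and Lmo4 (1.32) lie at the right, and the named falls lie between -0.84 and -0.43.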

How the data were processed

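The authors deposited MAS5 signals, which are linear intensities. The tool is named in the submitters' processing notes, and its version and settings are not given in the sources used here. Every array had a mean, with 2% trimmed from each end, of 100.06 to 100.07. Of 12488 probe sets, 66 were controls, 10833 named 1 gene in the platform annotation, 396 several and 1193 none. Among the single-gene probe sets, 10817 had a gene ID in the RefSeq table, and 0 were renamed.

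Signals were used as log2(signal + 1), which understates the change of dim genes. Single-gene probe sets with a mean above the 40th percentile were tested, 6500 in all. The groups were compared in limma 3.58.1 (R 4.3.3) by lmFit and eBayes with a variance trend. Tests were two-sided, p-values were adjusted over all of these probe sets by Benjamini-Hochberg, and the threshold was 0.05. The fit was tested on simulated data. A signal at or under 14 on every array was taken as background, and a fold against it as a lower bound against 14. Precision is limited by the number of arrays.

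The members and lists were chosen with earlier results of these data known. Named genes were the members, the 5 most like Id3, and from each list the passing genes or, with none, the 2 largest differences. Others that are named were chosen after their values were seen.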

Additional observations from a re-analysis of the deposited data

How the results depend on the processing

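Id3 passed, in the same direction, under each of the 14 alternatives. The 242 calls became 2961 with scaling to the hybridization controls, which shifts every probe set alike, 108 with no filter, 21 without the variance trend, and 42 to 93 when an array was left out. Centring on array medians gave 99 rises and 177 falls, against 116 and 126. Reversed values were those of Id1 (-0.39), Tcf3 (-0.25), Tcf4 (-0.32) and Tcf12 (-0.36) with scaling to the hybridization controls, of Id1 without the first medium array and of Id2 without the second dexamethasone array. Leaving out an array gave -0.0065 to 0.14 for Id1, -0.46 to 0.16 for Id2, 0.07 to 0.35 for Tcf3, 0.06 to 0.22 for Tcf4 and 0.03 to 0.17 for Tcf12. The change in the averaged balance, -0.94, was -1.68 with summed signals, -2.45 with Id3 as the sole Id gene, -0.83 with a pseudocount of 16 and -0.99 to -0.89 when an array was left out. Except where the setting's own construction shows it, the cause was not tested. Arrays of the 2 groups share replicate numbers, but the labels tie nothing else to them, and deviations of same-numbered arrays correlated at 0.08. With these numbers as a replicate block 383 probe sets passed, among them all 242; the balance stayed at -0.94 and the calls of the members did not change. Signals near 14 limit Id1, and 2 arrays a group limit every interval.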

Other observations

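Other E-protein targets that are also on the marker list of double-positive thymocytes did not pass. Each had a probe set far above background, and they were chosen after their values were seen. Rag1, which starts recombination of antigen receptor genes, had signals of 2131 and 2098 in medium and of 2929 and 2347 with dexamethasone on its brighter probe set, a log2 difference of 0.31 (limma adjusted p = 0.183). Its partner Rag2 had 285.0 and 282.3 in medium and 303.3 and 330.0 with dexamethasone (0.16). On these probe sets both dexamethasone arrays were above both medium arrays, as were 23.9% of all tested, while the dimmer Rag1 probe set overlapped, with 16.7 and 23.2 in medium and 23.7 and 19.0 with dexamethasone. Cd4 had a log2 difference of -0.06. The 3 probe sets of Dntt, which adds bases at receptor joints, differed by 0.03, -0.02 and -0.45. With scaling to the hybridization controls each of these differences would be lower by 0.45.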
